A study of Mus musculus with 66 samples.

Results

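The granulosa marker genes described here are Foxl2, Amh, Amhr2, Inha, Fst, Wt1 and Nr5a1, 7 of the 24062 genes in a table of poly(A) RNA from mouse germ cells and oocytes. They were chosen by name as genes that somatic cells of the ovary use, with earlier results of these data known. They are followed over all 66 libraries in 24 groups as a gauge of follicle-cell RNA in samples meant to hold germ cells. The study's title asks how hypoxia and Foxo3 relate to oocyte dormancy. Every library is labelled as a germ cell or an oocyte sample, and none is a sample of granulosa cells. A level of these genes can therefore be compared between libraries but not turned into a share of granulosa cells. In bulk RNA scaled to a library total, fewer granulosa cells, less RNA per granulosa cell and more germ cell RNA cannot be told apart.

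The 39 culture libraries come from reconstituted ovaries, in which 75000 thawed gonadal somatic cells of E12.5 embryos were joined with 5000 germ cell precursors (PGCLCs) that were derived from embryonic stem cells and carried the Blimp1-mVenus reporter. All of these cultures received 10 µM of the Rock inhibitor Y-27632 for the first 2 days, and their strain is given as C57BL/6 X 129/SvJ. At D21 there were 2 libraries each of Foxo3dNES Tg and of WT cells under hypoxia (5% O2), 2 each of Foxo3dNES Tg and of WT cells under normoxia (air), and 2 each of Foxo3dNES Tg and of WT cells whose oxygen level the labels do not give. The culture course had 3 libraries on every odd day between D5 and D17 and on D10 and D20. The titles of these libraries give neither an oxygen level nor a genotype. The ovarian groups, of 3 libraries each, were E14.5, E16.5, E18.5, P1, P3, small and large oocytes of P4 and small and large oocytes of P6, from stella-ECFP (SC) reporter ovaries of strain C57BL/6 x B6D2F1. The labels give neither the promoter of the Foxo3dNES transgene nor the number of stem cell lines, the sex of the somatic cells, or the cells pooled per library. Up to E18.5 and D11 the samples are called germ cells, and from P1 and D13 they are called oocytes.

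Granulosa cells are the supporting cells that surround each oocyte and form the follicle with it. Their precursors express the transcription factors Wt1, a zinc finger protein of the gonadal somatic lineage, Nr5a1 (SF-1), a nuclear receptor that activates steroidogenic genes, and Foxl2, a forkhead factor that maintains granulosa identity. Their products include Amh, a hormone of the TGF-beta family made by growing follicles that restrains the recruitment of resting follicles, and Amhr2, the type II receptor through which Amh acts. Inha encodes the alpha subunit of inhibin, which opposes activin, and Fst encodes follistatin, which binds and neutralises activin.

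On the mouse build GRCm38, the assembly also called mm10 in the submitters' processing notes, the 7 genes lie on 6 chromosomes, as annotated by GENCODE. Foxl2 spans chr9:98955288-98958543, Wt1 spans chr2:105126529-105173616, and Nr5a1 spans chr2:38692656-38714542 on the minus strand. Amh spans chr10:80805243-80807648, Inha spans chr1:75507077-75510366, Amhr2 spans chr15:102445367-102454633, and Fst spans chr13:114452290-114458951 on the minus strand. Foxl2 shares 12 bases of exon with Foxl2os on the opposite strand, and Fst shares 115 bases with an antisense transcript, Gm47040. Since the strand setting of the counting is not given in the sources used here, reads of these antisense pairs could not be told apart if strand was not used. Amh begins 319 bases from Sf3a2, a splicing factor gene on the same strand that averaged 116 RPM over the libraries.

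Amhr2 was the member whose group means followed the sum of all 7 most closely, so its promoter window is shown. It is the 250 bases before the RefSeq start, at chr15:102445117-102445366 on the plus strand of GRCm38.p6, and the capitals mark AGGTCA, the core site that Nr5a1 and related nuclear receptors bind.
Amhr2 promoter: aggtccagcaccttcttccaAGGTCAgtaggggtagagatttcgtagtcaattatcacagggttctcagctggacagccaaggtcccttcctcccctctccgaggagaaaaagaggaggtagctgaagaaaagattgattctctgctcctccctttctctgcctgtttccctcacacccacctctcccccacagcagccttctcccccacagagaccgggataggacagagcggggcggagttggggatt
AGGTCA was searched on both strands and occurs in 4607 of 32851 such windows, or 14.02%. The longer form CAAGGTCA, which contains it, occurs in 438 windows, or 1.33%, and the match marked above is part of one. A RefSeq window was matched for 3 of the 7 genes, Amhr2, Inha and Foxl2, of which Amhr2 and Inha hold AGGTCA and Amhr2 alone holds CAAGGTCA. These matches describe the letters only and say nothing of binding. The Inha window, chr1:75507359-75507608, and the Foxl2 window, chr9:98955357-98955606, lie within the GENCODE spans of these genes and not before them.

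Libraries held 13.9 to 23.2 M reads (M for 1e+06) in the ovarian groups, 14.7 to 22.8 M in the culture course and 4.84 to 21.3 M at D21, where the libraries with no stated oxygen level were the shallowest, at 4.84 to 8.72 M. Values are reads scaled to a library total of 1e+06 (RPM) and are not divided by length. A count of 3 reads, the level under which a gene is treated as not detectable, corresponded to between 0.129 and 0.619 RPM, for counting error only. A list of 10 germ cell and oocyte genes summed to between 2123 and 22025 RPM per library, so the markers of the labelled cells were present in all of them, and the 7 granulosa genes summed to between 0.989 and 703 RPM. The labels do not say that libraries of 1 group came from separate animals or cultures, so p-values measure the spread between these samples, which may be technical.

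The summed level of the 7 genes fell into bands (see the plot of the sum by library). It was highest in Foxo3dNES Tg D21 with no stated oxygen level, at 581 ± 173 RPM (SD, n = 2). Next came D10 at 363 ± 92.2, D11 at 338 ± 115, D9 at 298 ± 83.8 (n = 3 each), WT D21 with no stated oxygen level at 241 ± 51.1, and the normoxic WT and Foxo3dNES Tg cultures at 192 ± 107 and 169 ± 57.0 RPM (n = 2 each). The libraries of neighbours in this top band overlapped, so the order of neighbours is not resolved, while those of Foxo3dNES Tg D21 with no stated oxygen level lay wholly above D9, WT D21 with no stated oxygen level and both normoxic groups. E16.5 ovaries followed without overlap at 71.8 ± 5.28 RPM, then E18.5 at 48.4 ± 13.3, and D5 and D7 at 32.4 ± 9.10 and 31.0 ± 2.77 RPM. A band between 9.53 and 23.9 RPM held P1, P3, E14.5, P4 small, P6 small and both hypoxic D21 groups. The lowest band, without overlap with the others, held the large oocytes of P4 and P6 and the D13 to D20 cultures, with means between 1.497 and 2.54 RPM.

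**Figure D1:**
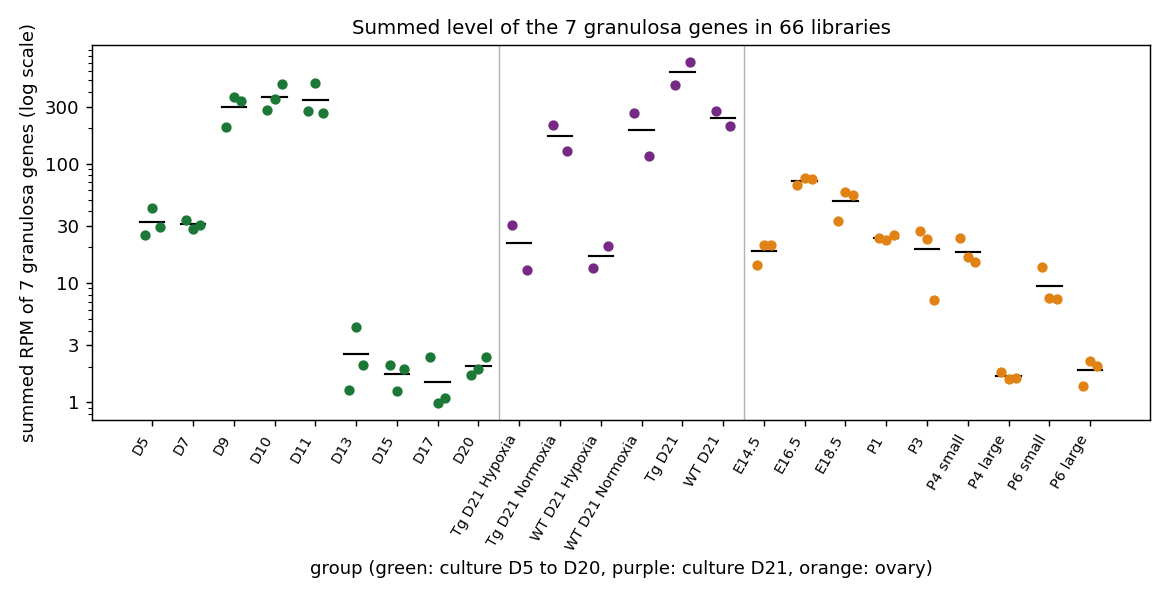
Summed RPM of the 7 granulosa genes (log axis) in each of 66 libraries, by group; a point is a library and a bar the group mean. D9 to D11 and the D21 groups labelled normoxia or with no stated oxygen level lie between 117 and 703 RPM, while D13 to D20 and the large ovarian oocytes lie between 0.989 and 4.28 RPM.

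In the ovary, all 7 genes were higher at E16.5 than at E14.5, a comparison between neighbouring times that was chosen after the values of the genes were seen. Foxl2 had 8.43, 7.92 and 7.44 RPM in the 3 E16.5 libraries, against 1.14, 1.06 and 1.67 RPM in the E14.5 libraries, so the groups do not overlap. Its log2 difference was 1.97 ± 0.25 (SE, limma, adjusted p = 2.0e-07, on the log2(RPM + 1) scale used for all differences here). Amhr2, the receptor, had 12.9, 16.8 and 14.2 RPM at E16.5, against 1.58, 3.36 and 3.02 RPM at E14.5. The other members differed by 1.17 (Inha) to 1.94 (Wt1), and the 7 genes did not overlap between the ages. Of all 15401 genes tested, 42.7% were higher at E16.5 and 41.1% were higher without overlap. Inha, with a difference of 1.17, lost its call with edgeR (adjusted p = 0.065) and with DESeq2 (adjusted p = 0.053). Of other lists, 13 of 18 other granulosa, 5 of 10 stroma and theca and 3 of 6 blood and immune genes were also higher at E16.5, and their part in the result was not tested.

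Between E16.5 and E18.5, also compared after the values were seen, Amh and Inha were called lower and the other 5 genes were not called. Amh had 0.474, 0.744 and 0.836 RPM at E18.5, against 4.41, 8.93 and 4.07 RPM at E16.5, a log2 difference of -1.95 ± 0.28 (limma, adjusted p = 1.5e-06). Inha had 4.79, 4.70 and 5.85 RPM at E18.5, against 16.6, 15.7 and 21.2 RPM at E16.5, a difference of -1.62 ± 0.32 (adjusted p = 1.2e-04). These 2 genes fell without overlap. Wt1 had 11.3, 16.47 and 15.05 RPM at E18.5, against 12.3, 11.3 and 14.02 RPM at E16.5, and was not called. The 5 genes other than Amh and Inha differed by -0.48 to 0.17, with 95% intervals that reach no lower than -1.19 and no higher than 0.77, and differences between genes in this change were not tested. Over all genes, 35.3% were lower at E18.5, and 36.7% were lower without overlap. Of 16 tested genes of the AMH, activin and inhibin pathway list, 5 were higher and 7 lower at E18.5. Inhbb, the beta B subunit that pairs with Inha and is also on the list of other granulosa genes, had a log2 difference of -1.96 ± 0.27 (adjusted p = 9.2e-07).

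Set against E14.5, E18.5 had 5 of 7 genes higher, against 40.0% of all genes, with a median log2 difference of 1.28 over the 7 and 0.14 over all genes. Of the 7, 4 were higher without overlap, against 39.6% of all genes. The largest difference was that of Wt1, with 11.3, 16.47 and 15.05 RPM at E18.5 against 2.32, 2.26 and 3.02 RPM at E14.5 (log2 2.10 ± 0.29, limma, adjusted p = 5.7e-07). Amh and Inha were not called, at -0.28 ± 0.28 and -0.45 ± 0.32. Without the first E14.5 library the Inha difference was -0.79 and passed (adjusted p = 0.038). Other lists had genes in both directions at E18.5 against E14.5, where 40.0% of all genes were higher. Among 18 other granulosa genes, 10 were higher and 2 lower, and among 10 stroma and theca genes, 5 were higher and 1 lower. Among 6 endothelial genes, 3 were higher and 1 lower, and among 6 blood and immune genes, 3 were higher and 2 lower. The part of these lists in the result was not tested.

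At P3, 4 of the 7 genes were lower than at E18.5, namely Foxl2, Wt1, Amhr2 and Nr5a1, against 32.3% of all genes. Markers of other lists were lower too, with 12 of 18 other granulosa, 4 of 5 surface epithelium, 5 of 10 stroma and theca and 3 of 6 endothelial genes called lower at P3, and their part in the result was not tested. Foxl2 had 1.48, 1.33 and 0.420 RPM at P3, against 5.13, 8.23 and 8.48 RPM at E18.5 (log2 -2.01 ± 0.25, limma, adjusted p = 2.9e-07). Of the 7, 4 were lower without overlap, against 35.1% of all genes. The median difference was -1.01 over the 7 and -0.07 over all genes. Inha and Fst differed by -0.62 ± 0.32 and -0.79 ± 0.40 and Amh by -0.21 ± 0.28, none of which passed. The third P3 library stood below the others for the sum, with 7.28 RPM against 27.4 and 23.6 RPM. Nr5a1 lost its call without that library (log2 -0.72, adjusted p = 0.063), without the second E18.5 library (-0.77, adjusted p = 0.051) and with edgeR (adjusted p = 0.051). Without the first P3 library, Inha and Fst passed (adjusted p = 0.042 and 0.0040), and without the first E18.5 library Fst did (adjusted p = 0.033). At P1, compared after the values were seen, 4 of 7 were lower than at E18.5, against 24.1% of all genes. Of the 7, 4 were lower without overlap, against 29.2% of all genes. Of other lists, 5 of 18 other granulosa, 4 of 10 stroma and theca and 2 of 6 endothelial genes were lower at P1. The call of Foxl2 (-1.57 ± 0.25, adjusted p = 2.1e-05) was kept in every alternative run for it. Inha, Wt1 and Nr5a1 passed narrowly, with adjusted p of 0.029 to 0.036, and edgeR and DESeq2 each called 1 of 7. Leaving out single libraries gave counts of 1 to 5, with 1 without the second E18.5, the third E18.5 or the second P1 library and 2 without the first or the third P1 library.

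Small oocytes of the young ovary mostly rest in primordial follicles, and large ones belong to follicles that have begun to grow. At P4 the small oocytes had higher levels of most members than the large ones. Wt1 had 5.74, 5.43 and 2.86 RPM in small oocytes, against 0.345, 0.180 and 0.230 RPM in large ones, a log2 difference of 2.14 ± 0.29 (limma, adjusted p = 4.7e-07). Fst had 4.93, 2.94 and 2.28 RPM in small oocytes, against 0.115, 0 and 0 RPM in large ones (2.03 ± 0.40, adjusted p = 6.9e-05). The groups do not overlap for either gene, and in the large oocytes Fst rested on 2 reads in 1 library. In all, 6 of 7 genes were higher in small oocytes, against 48.7% of all genes, and the same 6 did not overlap, against 52.7% of all genes. The median difference was 1.41 over the 7 and 0.34 over all genes. Amh was not called, with 1.72, 0.317 and 0.993 RPM in small oocytes against 0.518, 0.180 and 0.806 RPM in large ones (0.38 ± 0.28, adjusted p = 0.23). At P6, 3 of 7 genes were higher in small oocytes, against 51.3% of all genes, and 3 (Amhr2, Wt1 and Fst) were higher without overlap, against 54.7%. Amhr2 had 3.47, 2.03 and 2.93 RPM in small P6 oocytes, against 0.157, 0.103 and 0.187 RPM in large ones (1.71 ± 0.31, adjusted p = 1.8e-05). Wt1 was called there too (1.41 ± 0.29, adjusted p = 1.1e-04). Inha, at 0.78 ± 0.32 (adjusted p = 0.033), lost its call without the first small library (0.48, adjusted p = 0.22), without the first large one (0.57, adjusted p = 0.16), with edgeR (adjusted p = 0.060), with a pseudocount of 5 RPM (0.15), with no filter on low values (0.055) and under median-of-ratios or TMM rescaling (0.12 and 0.11). The median difference at P6 was 0.68 over the 7 and 0.41 over all genes. The large oocytes held few reads of the 7 genes together, 26 to 31 per library at P4 and 26 to 43 at P6. At P6 their Amhr2 level rested on 2 to 4 reads per library, Wt1 on 1 to 5 and Fst on 0 to 3. At P4 their Foxl2 level rested on 2 reads per library and Amhr2 on 2 to 4, so these levels are close to the limit of counting.

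The list of other granulosa genes had members in both directions. Of 18 tested, 9 were higher and 5 lower in small oocytes at P4, against 48.7% higher and 20.5% lower of all genes. At P6, 6 were higher and 6 lower, against 51.3% higher and 22.1% lower of all genes. Aldh1a1, a retinaldehyde dehydrogenase, was higher in small oocytes, with means of 13.7 RPM in small and 0.466 RPM in large P4 oocytes. Nr5a2, a nuclear receptor related to Nr5a1, was lower, with 3.17 RPM in small and 42.3 RPM in large P4 oocytes (log2 -3.40, limma, adjusted p = 6.6e-10). Gata4, a zinc finger factor, had means of 0.942 RPM in small and 14.7 RPM in large P6 oocytes (-3.10, adjusted p = 2.5e-11). The members lower in small oocytes thus include transcription factors of the gonad that the large oocytes' libraries held. Of 10 stroma and theca genes, 7 were higher and 1 lower in small oocytes at P4, and 8 were higher and 1 lower at P6. Of 6 endothelial genes, 1 was higher and 2 lower at P4, and 1 was higher and 3 lower at P6. Of 6 blood and immune genes, 0 were higher and 2 lower at each age. The part of these lists in the result was not tested.

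In culture all 7 members were higher at D9 than at D7. The 2 days are compared here after the values were seen, and the planned comparison was of D11 with D5. Amhr2 had 51.2, 100.2 and 86.8 RPM at D9, against 2.49, 2.93 and 4.27 RPM at D7, a log2 difference of 4.22 ± 0.29 (limma, adjusted p = 1.6e-10). Wt1 had 29.96, 57.0 and 63.2 RPM at D9, against 0.259, 0.808 and 0.907 RPM at D7 (4.90 ± 0.32, adjusted p = 4.7e-11). Inha, at D7 the member with the highest level per kilobase of exon, had 81.8, 125 and 132 RPM at D9, against 27.3, 19.6 and 20.2 RPM at D7 (2.27 ± 0.32, adjusted p = 5.2e-06). None of the 7 genes overlapped between the days, and 7 of 7 were called, against 26.6% of all 16065 genes, with 39.4% of all genes higher without overlap. Genes of other lists were higher at D9 as well, namely 16 of 20 other granulosa, 8 of 12 stroma and theca, 6 of 8 blood and immune, 4 of 7 endothelial and 4 of 6 surface epithelium genes. Their part in the result was not tested.

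D11 gave the same count against D5, with 7 of 7 higher and no overlap, against 31.2% of all genes called higher and 28.3% higher without overlap. Foxl2 had 17.8, 24.2 and 24.3 RPM at D11, against 1.48, 2.06 and 1.23 RPM at D5 (log2 3.16 ± 0.38, limma, adjusted p = 2.9e-07). Nr5a1 had 10.1, 21.4 and 14.1 RPM at D11, against 0.591, 0.351 and 0.868 RPM at D5 (3.29 ± 0.28, adjusted p = 1.3e-09). Differences ran between 2.39 (Fst) and 4.22 (Wt1), with a median of 3.16 over the 7 and 0.17 over all genes. Genes of other somatic cells were higher as well: 11 of 12 stroma and theca genes, 6 of 8 blood and immune genes, 4 of 7 endothelial genes, 3 of 6 surface epithelium genes, 6 of 7 testis and Sertoli genes (a list that holds Amh) and 13 of 20 other granulosa genes. The second D11 library had 1976 RPM of the stroma and theca list and 576 RPM of the blood and immune list, against 269 and 250.7 RPM and 73.6 and 55.8 RPM in the other D11 libraries. That library was also the highest in the summed granulosa level, with 471 RPM against 276 and 267 RPM. Without it, 7 of 7 genes were called against D5, and likewise in the D13, D20 and E18.5 comparisons that use D11. The part of other cell types in the rise at D11 was not tested.

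The reverse change came between D11 and D13. Amhr2 had 0.173, 0 and 0 RPM at D13, against 90.3, 118 and 73.0 RPM at D11 (log2 -6.46 ± 0.29, limma, adjusted p = 1.7e-14). Inha had 0, 1.46 and 0.519 RPM at D13, against 98.0, 189 and 89.5 RPM at D11 (-6.27 ± 0.32, adjusted p = 7.2e-14). Amh, the smallest difference of the 7, was -3.36 ± 0.32 (adjusted p = 2.0e-09), with 0.173, 0.273 and 1.30 RPM at D13 against 14.1, 20.9 and 10.2 RPM at D11. Every member fell without overlap, against 50.7% of all genes called lower and 50.9% lower without overlap, and these 2 days too were chosen after the values were seen. At D20 the sums were 1.70, 1.90 and 2.40 RPM, and 7 of 7 genes were lower than at D11, against 55.1% of all genes, and none overlapped, against 55.2% lower without overlap. Of 20 other granulosa genes, 12 were lower and 5 higher at D20 than at D11, where 22.5% of all genes were higher. The D13 to D20 libraries each held only 18 to 94 reads of the 7 genes together, so levels within that stretch of the culture are close to the limit of counting. The drop coincides with the change of label from germ cell to oocyte. Of other somatic lists, 12 of 12 stroma and theca and 7 of 8 blood and immune genes were lower at D13 than at D11, and 0 were higher. Of 7 endothelial genes, 5 were lower and 1 higher, and of 20 other granulosa genes, 14 were lower and 1 higher. Of 6 surface epithelium genes, 3 were lower, near the 50.7% of all genes. The summed germ cell list was 16225 to 17214 RPM at D13, against 2783 to 5218 RPM at D11. Of its 10 genes, 5 were called higher and 2 lower at D13, against 19.8% of all genes higher and 50.7% lower. The most abundant genes weigh most in this sum, such as Zp3 and Gdf9, with highest group means of 10783 RPM (D15) and 5477 RPM (D17). The part of other cell types in the drop was not tested.

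**Figure D2:**
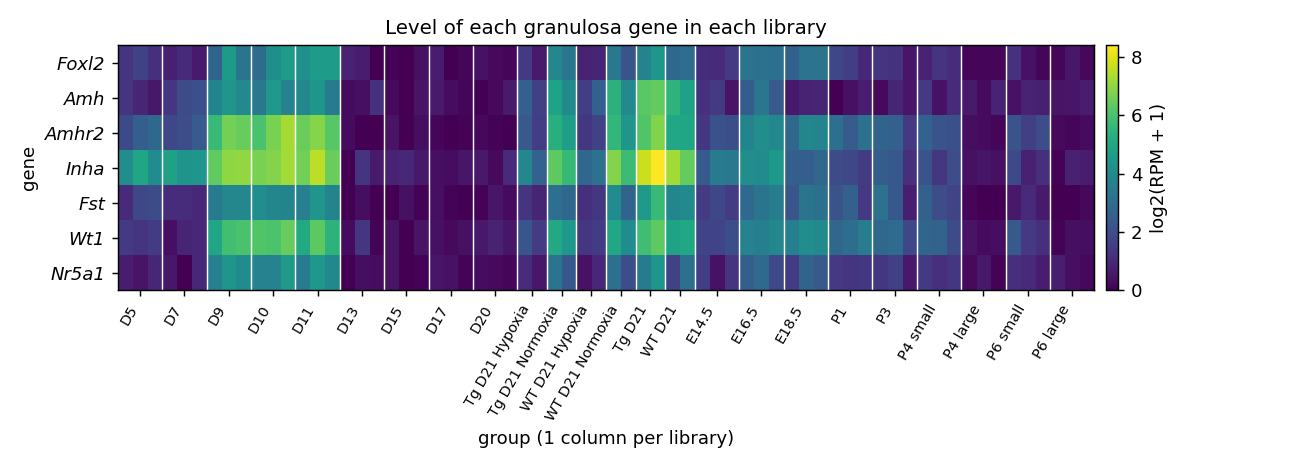
Level of each of the 7 genes, as log2(RPM + 1), in each library (1 column per library, white lines between groups). All 7 genes are brighter at D9 to D11 than at D5, D7 or D13 to D20. In the D21 groups labelled normoxia or with no stated oxygen level, each gene is brighter than in the hypoxic D21 groups. Nr5a1 is nevertheless as low as 2.06 RPM in WT D21 with no stated oxygen level. At D5 and D7 the Inha line, at 16.0 to 30.7 RPM, is the brightest of the 7.

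Culture and ovary were compared at 2 points, where origin, strain and culture cannot be told apart. D11 had 7 of 7 genes above E18.5, against 36.2% of all 16452 genes, and none overlapped, against 32.8% of all genes higher without overlap. Genes of other lists were also higher at D11, with 17 of 20 other granulosa, 10 of 12 stroma and theca and 8 of 11 blood and immune genes called, and their part in the result was not tested. Inha had 98.0, 189 and 89.5 RPM at D11, against 4.79, 4.70 and 5.85 RPM at E18.5, the largest difference of the 7 (log2 4.29 ± 0.33, limma, adjusted p = 5.8e-14). Amh had 14.1, 20.9 and 10.2 RPM at D11, against 0.474, 0.744 and 0.836 RPM at E18.5 (3.21 ± 0.30, adjusted p = 1.2e-11). Fst differed least (1.11 ± 0.34, adjusted p = 0.0049) and lost its call without the first E18.5 library (0.79, adjusted p = 0.068), with edgeR (adjusted p = 0.13) and with DESeq2 (adjusted p = 0.067). Between D20 oocytes and large P6 oocytes the levels were too low to compare. The 7 genes averaged 0.0634 to 0.564 RPM at D20 and 0.0468 to 0.462 RPM in large P6 oocytes, with 0 to 18 reads of a gene per library, and they passed the filter of the joint fit through other groups. None of the 7 was called, where 14.2% of all genes were called, and at these levels that says nothing of whether they differ. There, 0 of 7 had an unadjusted p under 0.05, and edgeR and DESeq2 also called 0. Wt1 was higher at D20 without overlap, with 0.475, 0.761 and 0.410 RPM against 0.0524, 0.257 and 0.234 RPM, as were 26.7% of all genes. Against small P6 oocytes, D20 had 3 of 7 genes lower, Amhr2, Wt1 and Nr5a1, against 43.4% of all genes, and these and Fst did not overlap, against 48.2% of all genes lower without overlap. Of 20 other granulosa genes, 4 were lower and 6 higher at D20, where 23.4% of all genes were higher. Amhr2 had 0.136, 0.0544 and 0 RPM at D20, against 3.47, 2.03 and 2.93 RPM in small P6 oocytes (-1.82 ± 0.31, adjusted p = 1.1e-06). Without the first small P6 library the count was 1, and Nr5a1 (-0.72 ± 0.30, adjusted p = 0.029) also lost its call without the second small P6 library (adjusted p = 0.065), the second D20 library (0.055) or the third (0.067). Nr5a1 averaged 0.161 RPM at D20, on 2 to 3 reads per library, and 0.937 RPM in small P6 oocytes. Both means are under the filter of 1 RPM, which Nr5a1 passed through other groups, so its call rests on levels close to the limit of counting. Inha passed without the second small P6 library (adjusted p = 0.025) or the third D20 library (0.032).

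The make-up of the summed RPM, which is not corrected for length, differed between groups. Inha made up 64.0% ± 8.63 of the 7-gene sum at D5 and 71.9% ± 7.90 at D7, 34.0% to 38.2% at D9 to D11, and 11.1% ± 3.15 at E18.5 (SD over 3 libraries each). Wt1 ran the other way, with 5.40% at D5 and 2.19% at D7 in the mean and 30.1% ± 3.57 at E18.5. The D5, D7 and E18.5 libraries thus had sums of 25.3 to 57.4 RPM that were led by different genes. Amh took 4.09% to 5.39% at D9 to D11 and 12.55% to 19.9% in the 6 D21 groups, against 1.42% ± 0.118 at E18.5. Dividing each level by the exon length of its gene in GENCODE, Inha was the highest per kilobase at D11, at 85.1 ± 37.3 RPM per kb, and Amhr2 at E18.5, at 5.35 ± 2.05 RPM per kb. These shares are descriptions and were not tested.

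**Figure D3:**
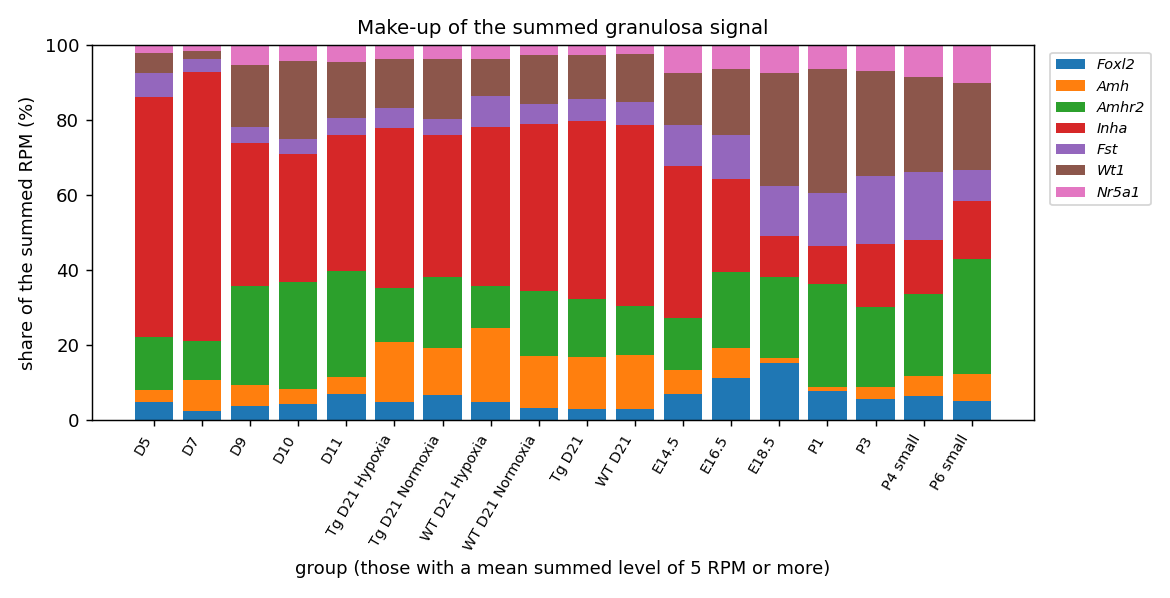
Mean share of each gene in the summed RPM of the 7, for the 18 groups with a mean sum of at least 5 RPM; each bar adds to 100%. Inha fills 64.0% and 71.9% of the bar at D5 and D7, while Wt1 reaches 30.1% at E18.5.

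In WT cultures at D21 all 7 genes were lower under hypoxia than under normoxia. Amhr2 had 1.60 and 2.13 RPM in the 2 hypoxic WT libraries, against 46.8 and 19.9 RPM in the normoxic ones, a log2 difference of -3.47 ± 0.41 (limma, adjusted p = 0.0033). Wt1 had 1.51 and 1.80 RPM under hypoxia, against 31.7 and 16.1 RPM under normoxia (-3.16 ± 0.36, adjusted p = 0.0032). Neither gene overlaps between the conditions. Inha had 6.07 and 7.93 RPM under hypoxia, against 115 and 53.9 RPM under normoxia (-3.33 ± 0.48, adjusted p = 0.0064). Amh had 1.93 and 5.14 RPM under hypoxia, against 41.2 and 14.46 RPM under normoxia (-2.59 ± 0.54, adjusted p = 0.013). Foxl2, Fst and Nr5a1 differed by -1.94 ± 0.43, -2.16 ± 0.45 and -1.87 ± 0.56, with adjusted p of 0.015, 0.013 and 0.038. In all, 7 of 7 genes were called lower under hypoxia, against 6.55% of all 14392 genes, and 7 did not overlap, against 23.5% of all genes. edgeR and DESeq2 each called 7 as well. The calls rest on the spread shared by the 6 D21 groups: with the 4 WT libraries alone 0 of 7 passed, without the first hypoxic library 0 did, and without the second hypoxic library 2 did (Amhr2 and Wt1), while every difference kept its sign. The median difference was -2.59 over the 7 and 0.14 over all genes. Without the first normoxic library, 6 of 7 passed, with Nr5a1 at -1.33 (adjusted p = 0.12).

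The Foxo3dNES Tg cultures, too, had lower levels under hypoxia. Foxl2 had 1.70 and 0.521 RPM under hypoxia, against 13.9 and 8.88 RPM under normoxia (log2 -2.58 ± 0.43, limma, adjusted p = 0.025). Amhr2 had 4.14 and 1.91 RPM under hypoxia, against 38.8 and 25.0 RPM under normoxia (-3.06 ± 0.41, adjusted p = 0.025). Wt1 and Inha were called as well, at -2.92 ± 0.36 and -2.72 ± 0.48 (adjusted p = 0.025 and 0.030). These 4 genes compare with 0.869% of all genes called lower in this contrast. All 7 genes were lower without overlap, against 28.4% of all genes, but Amh (-2.33 ± 0.54), Fst (-1.87 ± 0.45) and Nr5a1 (-1.97 ± 0.56) had adjusted p of 0.077, 0.084 and 0.14. edgeR called 6 and DESeq2 7. Leaving out any 1 of the 4 libraries, whether the first or second hypoxic or the first or second normoxic one, left 0 of 7 called, as did testing all genes with no filter on low values. With the 4 Tg libraries alone, 7 of 7 passed. The difference between the genotypes in the hypoxia effect was tested directly and called none of the 7 genes and 0.00% of all genes. Its estimates ran between -0.64 (Foxl2) and 0.61 (Inha), with 95% intervals between -1.98 and 2.13, which include differences of either sign. For it, 0 of 7 had an unadjusted p under 0.05, and edgeR and DESeq2 called 0.

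**Figure D4:**
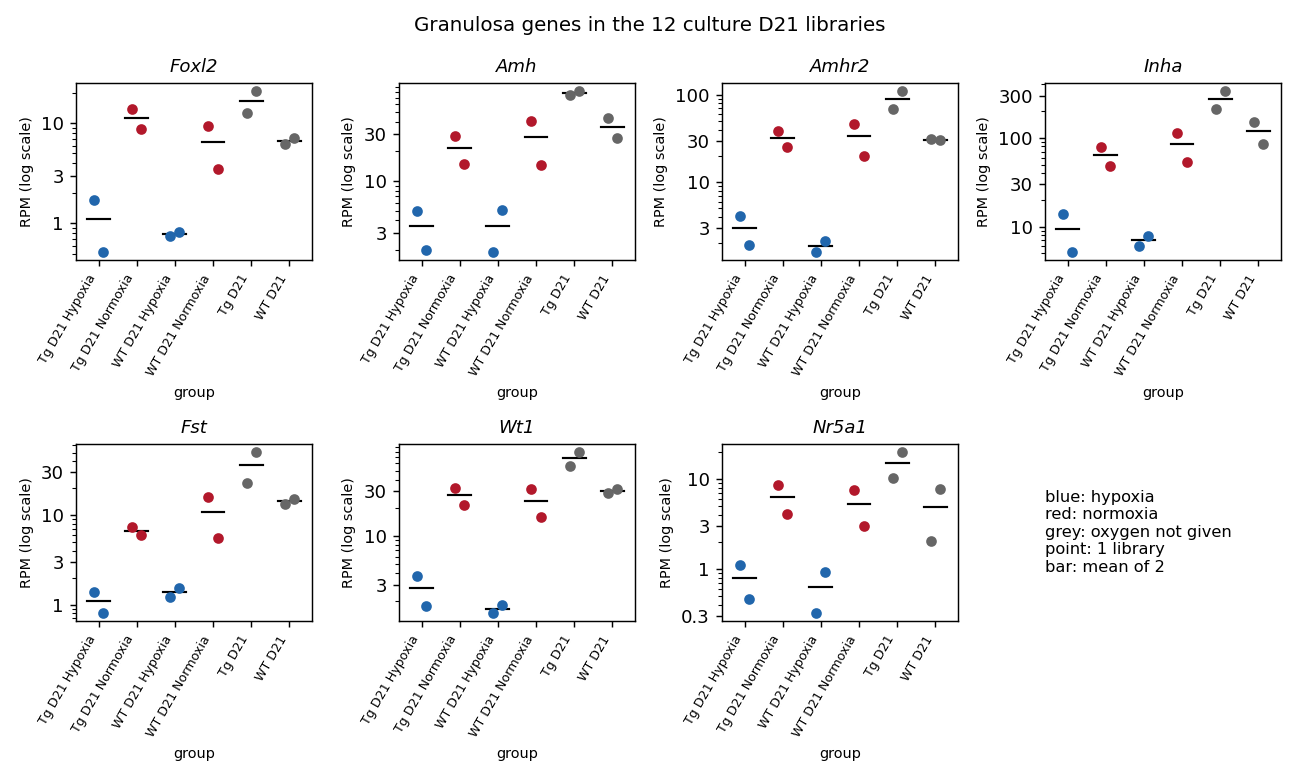
RPM (log axis) of each gene in the 12 D21 libraries; a point is a library and a bar the mean of 2. In every panel the 4 hypoxic libraries (blue) lie below the 4 normoxic ones (red), as for Amhr2 with 1.60 to 4.14 RPM against 19.9 to 46.8 RPM.

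The other somatic lists had no gene called lower in the same contrast apart from the other granulosa list and the testis and Sertoli list, which holds Amh. In WT cultures 1 of 11 stroma and theca genes and 2 of 7 endothelial genes were higher under hypoxia, where 15.9% of all genes were higher and 6.55% lower, and 0 of 5 blood and immune genes and 0 of 3 surface epithelium genes were called. The stroma and theca list summed to 55.1 and 62.8 RPM in hypoxic WT libraries, against 64.2 and 23.1 RPM in normoxic ones. Cdh5, the endothelial cadherin, had means of 6.60 RPM under hypoxia and 0.334 RPM under normoxia (log2 2.35, limma, adjusted p = 0.017). Of 17 other granulosa genes, 4 fell and 0 rose in WT cultures, among them Aldh1a1, with 1.58 RPM under hypoxia and 18.6 RPM under normoxia (-2.81, adjusted p = 0.011), and Wnt4, a granulosa signalling ligand (-1.61, adjusted p = 0.0063). Wnt4 was the 1 gene of that list called in Tg cultures (-1.43, adjusted p = 0.025). Of 16 pathway genes, the type II activin receptor Acvr2a and Smad5, which carries the Amh signal inside the cell, were higher under hypoxia in WT cultures and none was lower. The summed germ cell list was 11118 and 11737 RPM in hypoxic WT libraries, against 16360 and 22025 RPM in normoxic ones. Of its 10 genes, 1 was called higher and 2 lower under hypoxia in WT cultures. Whether lists differ from each other in their response was not tested.

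**Figure D5:**
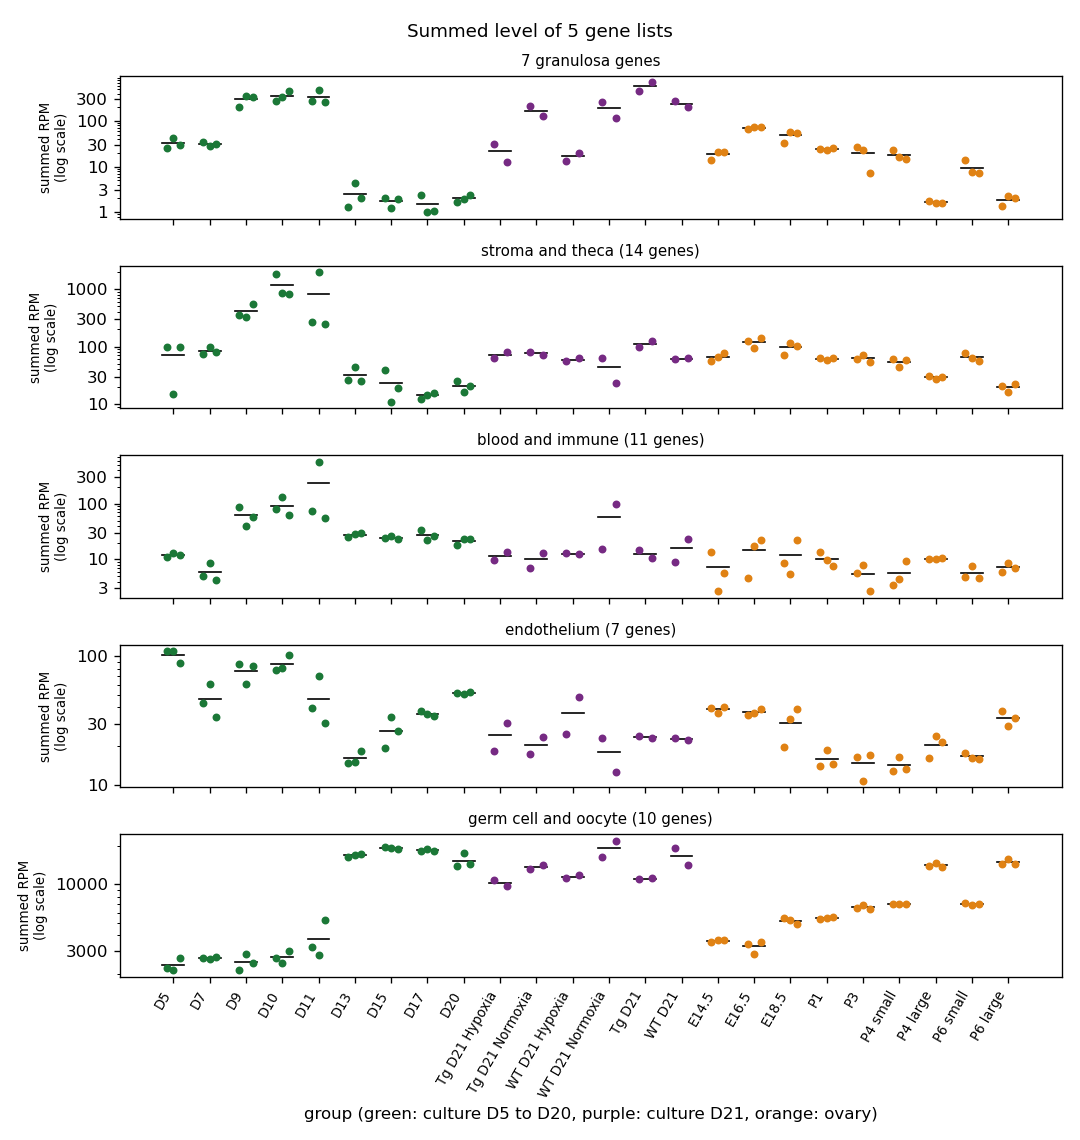
Summed RPM (log axes) of the 7 granulosa genes and of 4 other lists in each library; a point is a library and a bar the group mean. At D9 to D11 the granulosa, stroma and blood lists are all high, while at D21 the granulosa sum parts by oxygen and the stroma sum stays between 23.1 and 126 RPM.

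Shares of the summed RPM were also compared across oxygen and genotype at D21. Inha took 42.7% ± 2.59 in hypoxic and 37.9% ± 0.188 in normoxic Foxo3dNES Tg cultures, and 42.2% ± 4.37 in hypoxic and 44.6% ± 2.29 in normoxic WT cultures (SD, n = 2 each). Amhr2 took 14.2% and 19.0% in hypoxic and normoxic Tg cultures, and 11.2% and 17.3% in hypoxic and normoxic WT cultures. Wt1 took 13.1% and 16.2% in hypoxic and normoxic Tg cultures, and 10.1% and 12.8% in hypoxic and normoxic WT cultures. The shares of Amhr2 and Wt1 were both lower under hypoxia in both genotypes, without overlap between libraries. Foxl2 went opposite ways, with 4.80% and 6.77% in hypoxic and normoxic Tg cultures and 4.83% and 3.26% in WT ones. In the same order, mean shares of Amh were 16.1% and 12.55% in Tg and 19.9% and 13.9% in WT. Those of Fst were 5.42% and 4.06% in Tg and 8.33% and 5.40% in WT. Those of Nr5a1 were 3.63% and 3.58% in Tg and 3.52% and 2.70% in WT. These differences in share were not tested.

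Genotype was compared within each oxygen setting. Under normoxia, none of the 7 genes was called between Foxo3dNES Tg and WT, where 0.00695% of all genes were, and all 7 overlapped. Inha had 79.5 and 48.5 RPM in Tg libraries, against 115 and 53.9 RPM in WT libraries, a log2 difference of -0.34 ± 0.48. The 7 differences ran between -0.48 (Fst) and 0.83 (Foxl2), with 95% intervals between -1.48 and 1.77. Without the first normoxic WT library Foxl2 passed (1.43, limma, adjusted p = 0.027). Under hypoxia, too, none of the 7 was called, against 0.00695% of all genes, with differences of -0.19 (Fst) to 0.45 (Wt1) and intervals between -1.19 and 1.37. In each of these 2 comparisons, 0 of 7 had an unadjusted p under 0.05, and edgeR and DESeq2 called 0.

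With no stated oxygen level, all 7 genes were higher in Foxo3dNES Tg than in WT without overlap, against 41.1% of all genes, but none passed, against 6.85% of all genes called. Inha had 213 and 339 RPM in Tg libraries, against 152 and 85.4 RPM in WT libraries (log2 1.23 ± 0.48, limma, adjusted p = 0.12). Amhr2 had 69.5 and 111 RPM in Tg libraries, against 31.0 and 30.3 RPM in WT libraries (1.49 ± 0.41, adjusted p = 0.055). The differences lay between 1.12 (Wt1) and 1.57 (Nr5a1), and 6 of 7 had an unadjusted p under 0.05. edgeR called 0 of 7 and DESeq2 called 1, Amhr2 (adjusted p = 0.017). With a pseudocount of 5 RPM, Amhr2 and Wt1 passed, and without the second WT library Nr5a1 did (2.31, adjusted p = 0.025). Of 17 other granulosa genes, 3 rose and 0 fell, led by Wnt4 with 20.8 RPM in Tg and 5.39 RPM in WT libraries (1.77, adjusted p = 0.027). Inhbb, also among them (1.46, adjusted p = 0.042), was the 1 call among 16 pathway genes. The stroma and theca list summed to 98.0 and 126 RPM in Tg libraries, against 60.7 and 62.1 RPM in WT libraries, with 0 of 11 genes called.

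The WT D21 cultures under normoxia and those with no stated oxygen level stand far above the D20 time point of the culture course. The sums were 277 and 204 RPM in WT D21 with no stated oxygen level and 267 and 117 RPM in WT D21 under normoxia, against 1.70, 1.90 and 2.40 RPM at D20. Inha had 53.9 to 152 RPM in these 4 WT libraries against 0.475, 0.163 and 1.05 RPM at D20. The 2 sets were fitted apart, and this difference was not tested. The titles of the D20 libraries give neither an oxygen level nor a genotype, and the part of either in the difference was not tested. The hypoxic D21 libraries, at 12.7 to 30.8 RPM, were also above every D20 library.

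The 7 genes varied together over the groups. All 21 pairs correlated positively over the 24 group means of log2(RPM + 1), with Pearson's r between 0.838 and 0.980 and a median of 0.932. Within groups, the deviations of the 66 libraries from their group means also correlated positively for 21 of 21 pairs, with r between 0.192 and 0.645 and a median of 0.495. Each value is a description, since genes of 1 library share its depth and its cells. The 7 genes were also chosen with earlier results of these data known. Amhr2 followed the sum most closely over the 24 groups (r = 0.982) and Amh least (r = 0.885). The sum includes the member itself, so part of each r is built in. Over the 9 ovarian groups Amh had an r of 0.558, against 0.895 to 0.984 for the other members.

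Of 10442 genes with a group mean of at least 20 RPM, with the 7 members and predicted genes left out, the 8 whose group means were most like the sum were Timp3 (r = 0.986), a metalloproteinase inhibitor, Cpe (0.972), a carboxypeptidase that processes peptide hormones, Ece1 (0.971), the endothelin-converting enzyme, and Rgs11, Ier3, Gadd45b, Hs6st2 and Arhgap31 (0.967 to 0.970). Timp3 peaked at a mean of 128 RPM in Foxo3dNES Tg D21 with no stated oxygen level, the group where the sum also peaked. By Spearman's rank correlation the 8 leading genes were others, with 0 of the 8 shared, so the ranking depends on the measure.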

How the data were processed

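Poly(A) RNA of 66 libraries in 24 groups was analysed from 1 deposited table of RPM values (reads scaled to a common library total) for 24062 genes. Per the submitters' processing notes, reads were handled on build mm10 with featureCounts 1.5.1, R 3.4.4, Bowtie2 2.0.13 and TopHat2; the annotation, the strand setting and any filters are not given in the sources used here. The deposited RPM values sum to 1e+06 in each library, and whole reads could be recovered from 100% of values, to within 9.49e-05 of a read. Depth was 4.84 to 23.2 M reads per library (M for 1e+06). Replicates of a group differed by more than sampling noise (chi-square per gene of 3.42 to 229), so none was counted as a duplicate.

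Groups came from the sample labels. The test was limma 3.58.1 (R 4.3.3) with an intensity trend on log2(RPM + 1), with Benjamini-Hochberg adjustment over all genes with a mean of at least 1 RPM in at least 1 group of the fit and a threshold of 0.05. There were 4 fits, of the 27 ovarian libraries, the 27 libraries of the culture course, these 54 together, and the 12 D21 libraries. All 7 genes passed the filter in each fit, through the groups where they are high, and all 7 are named in every comparison. From the other lists (other granulosa, AMH, activin and inhibin pathway, stroma and theca, endothelium, blood and immune, testis and Sertoli, surface epithelium, germ cell), up to 3 called genes with the largest differences were eligible to be named. The members and lists were chosen with earlier results of these data known, and 5 comparisons of neighbouring times were added after the values were seen. Alternatives were other pseudocounts, no filter, median-of-ratios and TMM rescaling, the 2 groups alone, a replicate block, each library left out, and edgeR 4.0.16 and DESeq2 1.42.0 on the recovered reads. The scripts were tested on simulated data. The 3-read limit covers counting error only, and the 95% intervals are limma's, from the spread between libraries. Promoter windows came from RefSeq and gene positions from GENCODE.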

Additional observations from a re-analysis of the deposited data

How the results depend on the processing

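Depth limits what can be said of the low groups, in which the 7 genes together had only 18 to 94 reads per library at D13 to D20. Large oocytes had 26 to 31 such reads per library at P4 and 26 to 43 at P6. Across the alternative settings, 168 counts of called granulosa genes stayed within 1.5 times the count reported and 14 did not, and with single libraries left out 98 did and 14 did not. The share of all genes called under each alternative is not given beside these counts. The cause of each change was not tested, except that leaving out libraries or groups leaves fewer samples and dropping the filter adds genes to the adjustment.

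The count of called granulosa genes for small against large P6 oocytes was 5 with a pseudocount of 0.1 RPM. For P1 against E18.5 it was 1 with a pseudocount of 0.1 RPM, 2 with no filter, 1 with edgeR and 1 with DESeq2. For D20 against small P6 oocytes it was 5 and 1 with pseudocounts of 0.1 and 5 RPM. For hypoxic against normoxic Foxo3dNES Tg cultures it was 1 with a pseudocount of 5 RPM, 0 with no filter, 7 with the 2 groups alone and 7 with DESeq2. For hypoxic against normoxic WT cultures it was 0 with the 2 groups alone. For Foxo3dNES Tg against WT with no stated oxygen level it was 2 with a pseudocount of 5 RPM and 1 with DESeq2. With single libraries left out the counts ran from 1 to 5 for P1 against E18.5, 1 to 3 for D20 against small P6 oocytes, 0 to 7 for hypoxia in WT cultures, 0 to 0 for hypoxia in Foxo3dNES Tg cultures, 0 to 1 for Foxo3dNES Tg against WT under normoxia and 0 to 1 with no stated oxygen level.

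Libraries of different groups share only a replicate number: in none of the comparisons with 3 pairs did every same-numbered pair correlate above 0.1. The replicate block gave 6 of 7 granulosa genes for hypoxia in WT cultures, with Nr5a1 at an adjusted p of 0.057, and changed no other count. With the numbers crossed, added after seeing the data, the count was 6 for hypoxia in WT, 3 for hypoxia in Foxo3dNES Tg and 0 for genotype under hypoxia.

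Differences that changed sign were all uncalled. For small against large P6 oocytes, Amh was -0.10, -0.078, -0.20 and -0.27 with median-of-ratios rescaling, TMM rescaling, edgeR and DESeq2. In the same order, Amhr2 in Foxo3dNES Tg against WT under normoxia was -0.16, -0.14, -0.21 and -0.22, Amh under hypoxia was -0.016, -0.020, -0.013 and -0.030, and Nr5a1 in the hypoxia by genotype term was 0.036, 0.011, 0.23 and 0.22, and 0.031 with a pseudocount of 0.1 RPM. With single libraries left out, E18.5 against E16.5 ran from -0.25 to 0.069 for Foxl2 and -0.52 to 0.11 for Nr5a1. Small against large P6 oocytes ran from -0.0086 to 0.51 for Foxl2, and D20 against large P6 oocytes from -0.11 to 0.10 for Foxl2 and -0.11 to 0.30 for Inha. Foxo3dNES Tg against WT under normoxia ran from -0.97 to 0.48 for Amh, -0.57 to 0.62 for Amhr2, -0.88 to 0.20 for Inha, -1.16 to 0.20 for Fst, -0.25 to 0.68 for Wt1 and -0.30 to 0.77 for Nr5a1. Under hypoxia it ran from -0.23 to 0.60 for Foxl2, -0.52 to 0.55 for Amh, -0.35 to 0.89 for Inha, -0.39 to 0.0049 for Fst and -0.13 to 0.40 for Nr5a1. The hypoxia by genotype term ran from -0.47 to 0.98 for Amh, -0.18 to 1.011 for Amhr2, -0.017 to 1.23 for Inha, -0.40 to 0.97 for Fst, -0.23 to 0.70 for Wt1 and -0.64 to 0.44 for Nr5a1.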
